A study of Mus musculus with 6 samples.

Results

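The genes followed were 8 transcription factors that drive or mark the mesenchymal transition, in cultures of prostate cancer stem-like cells of TRAMP mice (transgenic adenocarcinoma of the mouse prostate): Prrx1, Snai1, Snai2, Twist1, Twist2, Zeb1, Zeb2 and Foxc2. They were taken by name, as genes with a row of their own and 1 symbol in the array's annotation. All 8 had such a row, among 9490 genes in the table. Expression was measured on 3 arrays of TNE cells, from prostates of mice with neuroendocrine tumours, and 3 arrays of TPIN cells, from prostates with intraepithelial neoplasia taken at 10 to 11 weeks of age. For the TNE mice the labels state no age. Both kinds of cell carry the TRAMP transgene, in which the probasin promoter drives viral T antigens in prostate epithelium, and both were grown without serum with EGF and FGF2. Whether samples of 1 group are separate animals or cultures is not stated, so the p-values reflect sample-to-sample spread that may be technical in part.

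In the epithelial-mesenchymal transition, epithelial cells lose their junctions and polarity and take on the shape, motility and matrix production of mesenchymal cells. Zinc finger proteins of the Snail and Zeb families repress E-cadherin and other epithelial genes by binding E-boxes, basic helix-loop-helix proteins of the Twist family and the forkhead protein FOXC2 act beside them, and the homeodomain protein PRRX1 shapes limb and craniofacial mesenchyme in the embryo. The same genes are expressed in ordinary fibroblasts, so their RNA marks a mesenchymal state and not a transition as such. PRRX1 has also been reported to activate transcription of tenascin-C, the matrix protein named in the series title, in rodent vascular cells.

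Of the 8 factors 6 were lower in TNE cells than in TPIN cells, none was higher, and Twist1 and Zeb2 did not pass the test. Prrx1 was 38.9-fold lower, Snai2 17-fold, Twist2 11.2-fold, Snai1 3.89-fold, Foxc2 3.11-fold and Zeb1 2.77-fold. Over all genes, limma called 20.5% different at an adjusted p under 0.05 with 10.2% lower and 10.3% higher in TNE. The median log2 difference, TNE minus TPIN, was -1.80 over the 8 factors and -0.02 over all genes tested. For 6 factors all 3 TNE arrays lay below all 3 TPIN arrays, and 20.5% of all genes were separated in that direction. Without TNE replicate 2 the number called was 3 of 8, namely Prrx1, Snai2 and Twist2.

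**Figure D1:**
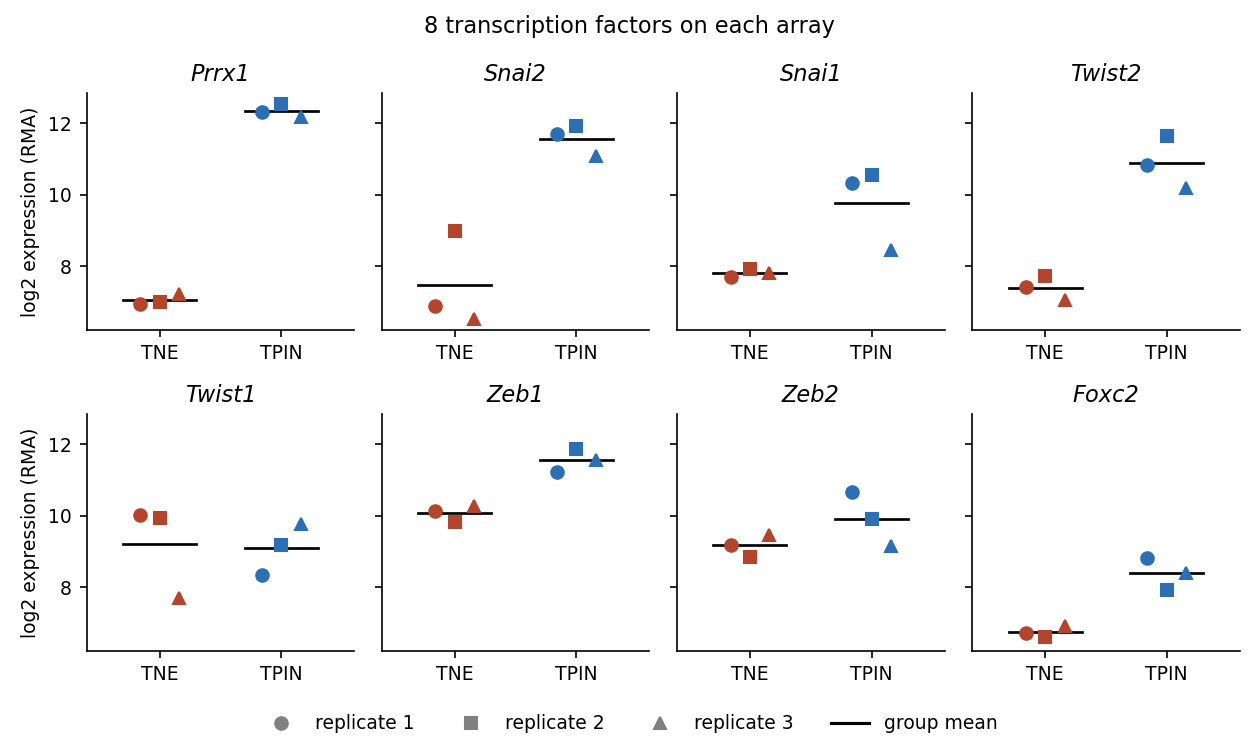
Log2 expression (RMA) of each factor on each array, with TNE on the left and TPIN on the right of every panel; symbols give the replicate and black lines the group means. The groups are separated for all factors but Twist1 and Zeb2, Snai2 is higher in TNE replicate 2 (8.99) than on the other TNE arrays, and Snai1 is lower in TPIN replicate 3 (8.45) than on the other TPIN arrays.

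Upstream sequence was read from the RefSeq promoter table (GRCm38.p6) for 5 of the 8 factors: Prrx1, Snai1, Twist1, Twist2 and Zeb2. Zeb1, Snai2 and Foxc2 had no entry. The 250 bases before the start are shown for Prrx1, which had the largest difference, for Snai1, for the Twist pair and for Tnc. Capitals mark matches on either strand to 3 motifs: the E-box CAGGTG that Snail and Zeb proteins bind, the core of paired-class homeodomains such as that of PRRX1, which is TAATTA, and the E-box form CATNTG that Twist proteins bind. No 2 of the marked stretches overlap.
Prrx1 (chr1:163313651-163313900, minus strand): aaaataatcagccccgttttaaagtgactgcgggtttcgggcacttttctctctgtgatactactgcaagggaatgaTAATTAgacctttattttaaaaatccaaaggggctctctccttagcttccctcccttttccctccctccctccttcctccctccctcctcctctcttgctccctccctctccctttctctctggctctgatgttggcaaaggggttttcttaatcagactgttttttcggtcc
Snai1 (chr2:167537945-167538194, plus strand): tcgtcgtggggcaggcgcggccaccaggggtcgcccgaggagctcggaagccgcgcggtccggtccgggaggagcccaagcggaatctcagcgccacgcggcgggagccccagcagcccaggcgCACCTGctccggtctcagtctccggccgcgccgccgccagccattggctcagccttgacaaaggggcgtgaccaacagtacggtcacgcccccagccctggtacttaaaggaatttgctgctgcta
Twist2 (chr1:91801211-91801460, plus strand): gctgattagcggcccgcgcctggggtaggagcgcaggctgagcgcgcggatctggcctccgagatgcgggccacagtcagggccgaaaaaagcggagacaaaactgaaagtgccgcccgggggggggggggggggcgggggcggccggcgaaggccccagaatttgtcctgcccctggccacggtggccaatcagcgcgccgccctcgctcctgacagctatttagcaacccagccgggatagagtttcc
Twist1 (chr12:33957421-33957670, plus strand): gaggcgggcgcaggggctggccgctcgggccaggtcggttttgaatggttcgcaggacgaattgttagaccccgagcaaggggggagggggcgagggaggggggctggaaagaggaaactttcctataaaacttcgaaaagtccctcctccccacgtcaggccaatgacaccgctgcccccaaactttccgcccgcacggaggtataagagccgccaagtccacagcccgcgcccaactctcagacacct
Tnc (chr4:64047016-64047265, minus strand): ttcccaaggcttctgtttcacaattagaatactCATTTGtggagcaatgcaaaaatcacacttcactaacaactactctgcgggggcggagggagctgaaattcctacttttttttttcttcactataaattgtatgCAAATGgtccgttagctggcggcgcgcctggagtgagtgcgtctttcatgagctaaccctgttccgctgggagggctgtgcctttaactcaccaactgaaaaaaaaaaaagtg

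The Prrx1 window held 1 TAATTA, beginning 173 bases before the start, a motif found in 4.84% of 32851 promoter windows of this length. The Snai1 window held 1 CAGGTG match, 126 bases before the start, as did 17.2% of all windows. The Twist1 and Twist2 windows held none of the 3 motifs, nor did the Zeb2 windows, which are not shown. The table holds a second, overlapping Tnc window with a later start. Neither Tnc window held TAATTA or CAGGTG. The Tnc window shown held 2 matches to CATNTG, 217 and 113 bases before the start, against 35% of windows with at least 1, and the other Tnc window held 1, with 51.2% guanine and cytosine. Guanine and cytosine made up 47.6% of the Prrx1 window and 44.8% of the Tnc window shown, against 70% for Snai1, 68.8% for Twist2, 62.4% for Twist1 and a median of 52.4% over all windows. A match is a description of the letters and not evidence that a factor binds there.

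Prrx1 separated the 2 kinds of cell with little spread within either. Its log2 level was 6.94, 7.02 and 7.23 on TNE arrays 1 to 3, against 12.31, 12.53 and 12.19 on TPIN arrays 1 to 3. The lowest TPIN array stood 4.96 above the highest TNE array, while the range within a group was 0.29 in TNE and 0.34 in TPIN. The means were 7.06 ± 0.15 in TNE and 12.34 ± 0.17 in TPIN (SD, n = 3 each), giving a difference of -5.28 on the log2 scale (SE 0.26, adjusted p = 0.000211 in limma). By p-value Prrx1 ranked 2 of 9490 genes, and by the size of its fall 14. The row's annotation lists 3 RefSeq mRNAs of Prrx1, so the isoforms are not told apart. The TNE values lie between the 10th percentile (6.73) and the lower quartile (7.83) of all values in the table, which holds no detection calls, so whether some Prrx1 RNA remains in TNE cells cannot be read from them.

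Prrx2, the relative of Prrx1 that acts beside it in limb and face mesenchyme, did not pass. Its log2 level was 8.96, 9.11 and 7.16 on the TNE arrays, against 9.05, 9.58 and 10.57 on the TPIN arrays, a log2 difference of -1.32 (95% interval -2.71 to 0.07, limma adjusted p = 0.144). TNE replicate 3 was the lowest of the 6 arrays. The gap between Prrx1 and Prrx2 on the same array differed between the groups by -3.96 (SD 1.23 in TNE and 0.871 in TPIN). An exact two-sided permutation test of that gap gave p = 0.1, the smallest that 3 arrays against 3 allow, and p = 0.125 after adjustment over 5 pairs of relatives.

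Snai2, which encodes SLUG, a repressor also needed by neural crest and by basal epithelial progenitors, fell in TNE cells. On the log2 scale it read 6.89, 8.99 and 6.53 on the TNE arrays and 11.70, 11.91 and 11.07 on the TPIN arrays. TNE replicate 2 stood above the other TNE arrays and still below every TPIN array. The log2 difference was -4.08 (SE 0.63, limma adjusted p = 0.00538), with values between -4.85 and -3.61 when any 1 array was left out and a call each time.

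Snai1, which encodes SNAIL, a repressor needed for gastrulation, was also lower in TNE, with a call that depended on single arrays. Log2 values were 7.72, 7.92 and 7.81 on the TNE arrays and 10.32, 10.55 and 8.45 on the TPIN arrays. The TNE arrays had a range of 0.20, and TPIN replicate 3 lay closer to them than to the other TPIN arrays. The log2 difference was -1.96 (SE 0.54, limma adjusted p = 0.0395). Leaving out any 1 of the 3 TNE arrays, TPIN replicate 1 or TPIN replicate 2 ended the call, with adjusted p between 0.0742 and 0.129, and without TPIN replicate 3 the difference was -2.62 (limma adjusted p = 0.00467). The log2 differences of Snai2 and Snai1 differed by -2.12, with p = 0.1 by the exact two-sided permutation test and p = 0.125 adjusted over the 5 pairs.

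Twist2 fell in TNE cells, and its relative Twist1 did not pass. Twist2, also called Dermo1 and expressed in dermal and bone mesenchyme, had log2 levels of 7.41, 7.74 and 7.06 on the TNE arrays and 10.84, 11.65 and 10.19 on the TPIN arrays. Its groups were far apart, and its log2 difference was -3.49 (SE 0.41, limma adjusted p = 0.00222), between -3.84 and -3.11 with any 1 array left out and past the threshold each time.

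Twist1, which is needed for cranial neural tube closure and mesoderm, had log2 levels of 10.01, 9.92 and 7.69 on the TNE arrays and 8.34, 9.19 and 9.78 on the TPIN arrays. The groups overlapped fully: the TNE arrays held both the 2 highest values and the lowest. The log2 difference was 0.11, with a 95% interval from -1.44 to 1.65 (limma adjusted p = 0.916), so the data leave room for a difference in either direction. Its sign was negative without TNE replicate 1, TNE replicate 2 or TPIN replicate 1, and it was 0.86 without TNE replicate 3. On each TNE array Twist1 read higher relative to Twist2 than on any TPIN array, and the differences of the 2 genes differed by -3.60, with p = 0.1 by the exact two-sided permutation test and p = 0.125 adjusted over the 5 pairs. TNE replicate 3, the lowest array for Twist1, was also the lowest for Prrx2. With group means removed the 2 genes had r = 0.980 over the 6 arrays, given as a description. The 6 genes nearest to Twist1 on this measure had r from 0.993 to 0.998, and Prrx2 was not among them.

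**Figure D2:**
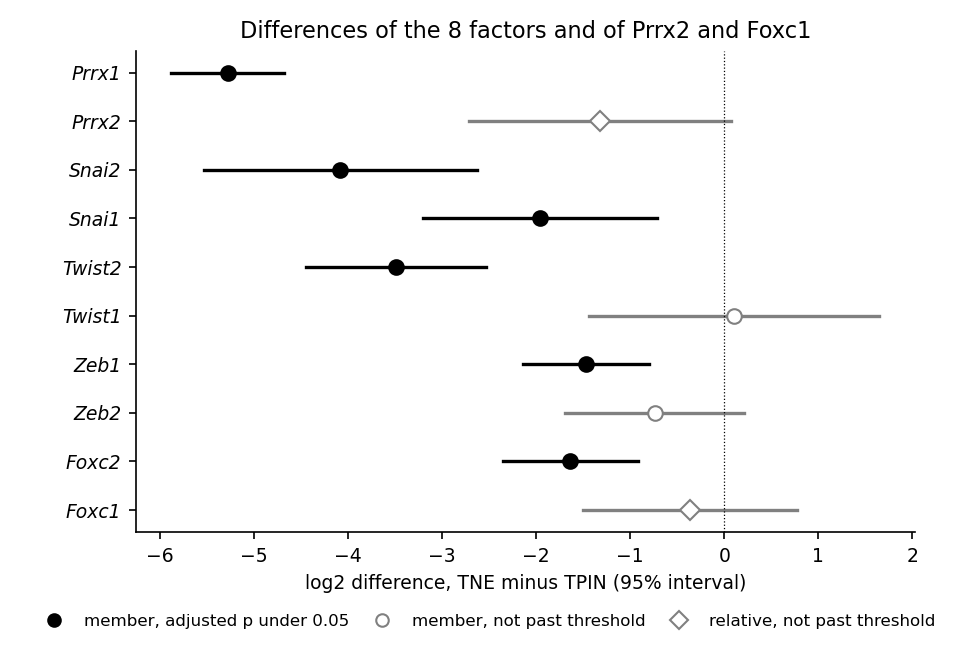
Log2 difference, TNE minus TPIN, of the 8 factors and of Prrx2 and Foxc1 (points) with 95% intervals from the limma fit (lines). Filled points passed the adjusted threshold of 0.05; Prrx1 lies farthest from 0 at -5.28, and the intervals of Twist1, Zeb2, Prrx2 and Foxc1 include 0.

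Zeb1, a repressor of E-cadherin and of the miR-200 genes, was lower in TNE by a smaller amount. The TNE and TPIN arrays gave log2 values of 10.14, 9.82 and 10.26 in TNE, against 11.23, 11.86 and 11.55 in TPIN. The groups were separated by 0.97, and differed by -1.47 on the log2 scale (SE 0.29, limma adjusted p = 0.0127). Without TNE replicate 2 the difference was -1.34 and the call was lost (limma adjusted p = 0.0621).

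Zeb2, also known as SIP1, had log2 levels of 9.20, 8.86 and 9.47 on the TNE arrays and 10.65, 9.92 and 9.17 on the TPIN arrays. TPIN replicate 3 lay within the range of the TNE arrays, so the groups overlapped. The log2 difference was -0.74, with a 95% interval from -1.69 to 0.21 (limma adjusted p = 0.216). With array weights in the fit Zeb2 passed (log2 difference -1.09, limma adjusted p = 0.0246). The differences of Zeb1 and Zeb2 differed by -0.73, with p = 0.4 by the exact two-sided permutation test.

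The Zeb genes are the classical targets of miR-205 and of the miR-200 family, and Snai1 is a reported target of miR-34a. Of these microRNA genes Mir205 and Mir34a had rows, and the miR-200 family is not analysed here. The 2 mature sequences are shown with the seed, bases 2 to 8, in capitals, from RefSeq (GRCm38.p6).
miR-205-5p: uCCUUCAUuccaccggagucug
miR-34a-5p: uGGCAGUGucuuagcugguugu
The array rows read the microRNA genes' transcripts and not the mature strands. Mir205 had 5.33 ± 0.06 in TNE and 5.51 ± 0.44 in TPIN (limma adjusted p = 0.667), and Mir34a had 4.84 ± 0.13 in TNE and 5.43 ± 0.31 in TPIN (limma adjusted p = 0.158). Neither passed, and all 12 of these values lay below the 10th percentile of the table.

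Foxc2, a forkhead factor of vessel and lymphatic development, was lower in TNE. It had log2 values of 6.73, 6.60 and 6.92 on the TNE arrays, against 8.82, 7.94 and 8.41 on the TPIN arrays. The TNE values lie near the 10th percentile of all values in the table (6.73). The arrays of the 2 groups did not overlap, and the log2 difference was -1.64 (SE 0.31, limma adjusted p = 0.011). Without TNE replicate 2 the call was lost (log2 difference -1.56, limma adjusted p = 0.0521). Foxc1 had 9.56, 8.26 and 7.77 on the TNE arrays and 9.39, 8.47 and 8.83 on the TPIN arrays, a log2 difference of -0.36 (95% interval -1.50 to 0.77). Foxc1 did not pass, and the differences of Foxc2 and Foxc1 differed by -1.27, with p = 0.1 by the exact two-sided permutation test and p = 0.125 adjusted over the 5 pairs.

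**Figure D3:**
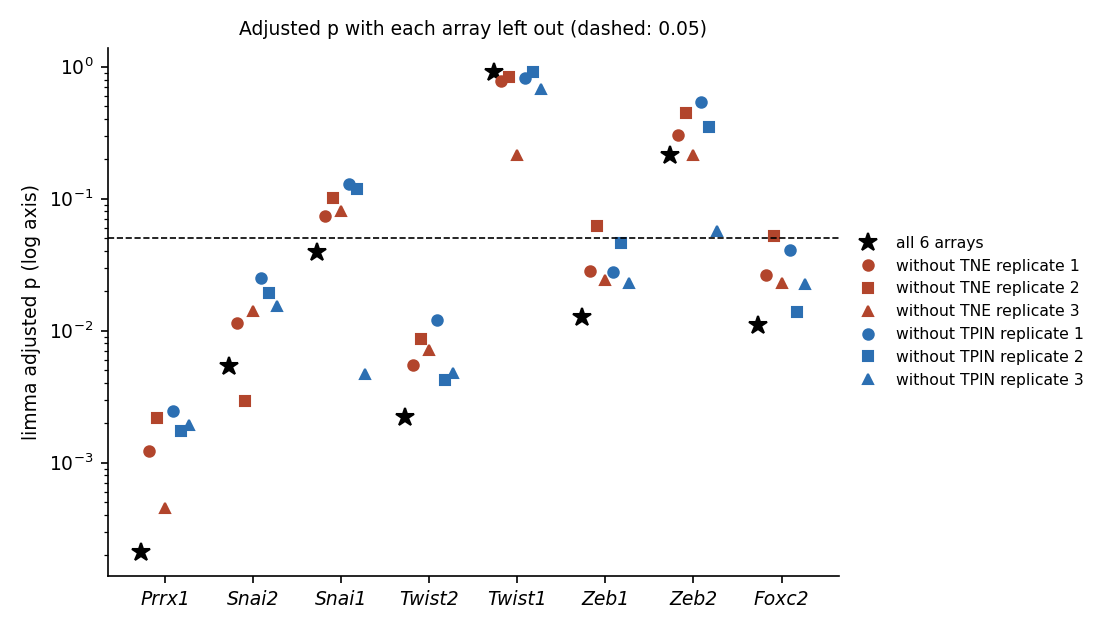
Limma adjusted p (log axis) of each factor with all 6 arrays (stars) and with each array left out in turn (red, a TNE array; blue, a TPIN array). Prrx1, Snai2 and Twist2 stay below the dashed line at 0.05 throughout, and Snai1 crosses it for 5 of the 6 arrays.

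Tnc was lower on the same arrays. Its log2 level was 6.33, 6.68 and 6.65 on the TNE arrays and 12.66, 13.39 and 12.02 on the TPIN arrays, a log2 difference of -6.13 (limma adjusted p = 0.000274). The TNE values all lay below the 10th percentile of all values in the table (6.73). TPIN replicate 2 was the highest of the 6 arrays for Tnc, Prrx1, Snai1, Snai2, Twist2 and Zeb1. Of 13 measured genes that have been tied to PRRX1 in other systems, 8 fell, none rose and 5 did not pass. Their median log2 difference was -3.37, against -0.02 for all genes, of which 10.2% were called lower. Besides Tnc the 8 include Postn (periostin, 66.9-fold lower in TNE), Hgf (hepatocyte growth factor, 30.6-fold), the collagen chain Col1a1 (15.2-fold) and Acta2 (smooth muscle actin, 15.9-fold). Of the 13, 5 are also fibroblast or smooth muscle markers, and the same 5 are among the mesenchymal genes counted further on. These 5 are Postn, Col1a1, Acta2, Col1a2 and Pdgfra, all among the 8 that fell, so the counts overlap and are not separate observations. Hgf, Tgfb2 and Tgfb3 are also among the inducing signals counted further on.

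The genes nearest to each factor were taken by Pearson's r over the 6 arrays, among 9268 named genes. Since the arrays form 2 groups, r here mostly records the gap between the groups and is given as a description. Nearest to Prrx1 were Bgn (biglycan, a matrix proteoglycan), Ripor1, Loxl1 (a lysyl oxidase that crosslinks elastin), Papss2 (which makes the donor for sulfation of proteoglycans), Frzb (a secreted Wnt antagonist) and Exoc3l4, with r from 0.996 to 0.999. For Snai2 they were Fnbp1, Csrp1, Cdh11 (a mesenchymal cadherin), the chemokine Ccl2, the glypican Gpc4 and Pvr (r from 0.987 to 0.996). Twist2 had Six5, Mamstr, Sike1, Slc39a13, Gpr149 and P2rx5 (r from 0.993 to 0.996), and Snai1 had Mlxip, Lrrc4c, Spon1, Zfp953, Calr and Htr2a (r from 0.995 to 0.999). Zeb1 had C1qtnf6, H2-M3, Sfmbt2, Pla2r1, Postn and Vegfc (r from 0.990 to 0.997), and Foxc2 had Sema7a, Ptger4, Srpx2, Pamr1, Medag and Il3ra (r from 0.992 to 0.999). All 36 of these genes had a lower mean in TNE, which follows from choosing them by correlation with factors that were lower there. Zeb2 had Naip2, Hipk1, Myo7a, Clic3, Tnfsf4 and Arhgap35 (r from 0.983 to 0.995), and Twist1 had Tma16, Acads, Phf23, Map2k1, Tdrd7 and Uhrf2 (r from 0.975 to 0.990). With group means removed, 4 genes were again among the nearest 6: Naip2 and Clic3 for Zeb2, Tma16 for Twist1 and Sema7a for Foxc2.

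On the chromosome, 8 of the 16 protein-coding neighbours of the factors had a row, and 1 of them passed. Over all genes 20.5% were called. Hdac9, a histone deacetylase gene that lies beside Twist1 and holds limb enhancers of Twist1 in the mouse, had log2 levels of 9.27, 9.71 and 10.40 on the TNE arrays and 6.80, 7.21 and 7.37 on the TPIN arrays. It was 6.35-fold higher in TNE (limma adjusted p = 0.00344), while Twist1 did not pass. For Zeb1, Zeb2, Snai1, Twist2 and Foxc2, the measured neighbours had log2 differences between -0.77 (Ube2v1, beside Snai1) and 0.76 (Arhgap12, beside Zeb1).

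Of 29 other measured transcription factors of mesenchyme 6 fell, 1 rose and 22 did not pass, with a median log2 difference of -0.61. The share called is close to the 20.5% of all genes, of which 10.2% were lower. Tbx18, a T-box factor of mural and ureteral mesenchyme, was 11.3-fold lower in TNE, Creb3l1, which drives collagen secretion, 10.5-fold, Gata6 8.53-fold, Osr2 5.58-fold and Hic1 5.16-fold. The gene that rose was Nfib (12.11 ± 0.24 in TNE, 9.75 ± 1.10 in TPIN), named after its values were seen, and it lost its call without TNE replicate 2, TNE replicate 3, TPIN replicate 1 or TPIN replicate 2. Of 5 measured homeobox relatives of Prrx1 none passed: Shox2, Meox1, Meox2 and Isx had log2 differences of 0.95, -0.90, -1.20 and -0.15, beside Prrx2. Shox2 passed without TNE replicate 3.

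Twist proteins bind DNA as dimers with the E proteins Tcf3, Tcf4 and Tcf12, and Id proteins hold E proteins away from DNA. With Bhlhe40 and Bhlhe41 added to these, 9 genes were measured. Of the 9, 1 rose and 1 fell, close to the share of all genes called (20.5%). Id4 was 6.40-fold higher in TNE (9.83 ± 0.71 in TNE, 7.15 ± 0.13 in TPIN), and Bhlhe40, a circadian and hypoxia-responsive repressor, was 4.76-fold lower. Tcf4 had 12.22 ± 0.07 in TNE and 11.87 ± 0.34 in TPIN, Bhlhe41 8.20 ± 0.66 in TNE and 8.04 ± 1.15 in TPIN, and Id3 9.10 ± 1.76 in TNE and 9.32 ± 1.12 in TPIN, all without a call.

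Corepressors and chromatin enzymes that Snail and Zeb proteins recruit were listed with the transition-linked enzyme Nsd2 and the kinase gene Lats2. Of 23 measured genes 5 rose and 2 fell. Over all genes 10.3% were called higher and 10.2% lower. Nsd2, a histone H3 methyltransferase, was 4.93-fold higher in TNE, Ezh2 and Suz12, subunits of the Polycomb complex that methylates histone H3, 3.91-fold and 2.33-fold, and the maintenance DNA methyltransferase Dnmt1 3.38-fold. Lats2, which is also among the stability genes counted below, was 4.91-fold lower. Suz12 lost its call without TNE replicate 2, TNE replicate 3 or TPIN replicate 1, and Lats2 without TNE replicate 2, TPIN replicate 1 or TPIN replicate 2. The count of the list was 3 without TNE replicate 2 or TPIN replicate 1 and 4 without TNE replicate 3 or TPIN replicate 2. On the same arrays, 16 of 27 cell cycle genes rose and 1, Ccnd2, fell (15.6-fold): Mcm3, Mcm2, Cdc6 and Pcna exceeded TPIN by 11-fold, 7.13-fold, 4.86-fold and 4.11-fold. The mean of this list ranged from 10.69 to 10.85 in TNE and from 8.29 to 9.89 in TPIN. The part of the cell cycle in the rise of chromatin enzymes was not tested.

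SNAIL and SLUG are short-lived proteins. Of 15 measured genes, listed for links to the stability of these proteins together with DNA damage kinases, 4 fell and 3 rose. The list joins stabilising and degrading functions, so its counts have no direction for protein level. The median log2 difference of this list was -0.14, and 10.2% of all genes were called lower and 10.3% higher. Lox and Loxl3, lysyl oxidases of a family that has been reported to stabilise SNAIL, were 67.1-fold and 9.76-fold lower in TNE. Fbxo45, a ubiquitin ligase subunit, and the DNA damage kinases Chek1 and Atm were 4.02-fold, 5.66-fold and 2.95-fold higher. The arrays measure RNA and give no protein level of any factor.

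Several extracellular signals that induce the factors were lower in TNE. Of 22 measured ligands, receptors and mediators 11 fell, none rose and 11 did not pass, with a median log2 difference of -1.56. Among all genes 10.2% were called lower and 10.3% higher. The EGF receptor gene Egfr was 20.5-fold lower, Inhba (an activin subunit) 38.6-fold, the ligands Fgf10 and Hgf 19.6-fold and 30.6-fold, and Tgfbr3 (betaglycan, a TGF-beta co-receptor) 7.24-fold. The count was 7 without TNE replicate 2, TNE replicate 3 or TPIN replicate 2.

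Genes that mesenchymal cells express were lower in TNE for the larger part, and whether the factors act on them was not tested. Of 44 measured 27 fell, 1 rose and 16 did not pass, and 40 had a negative difference, with a median of -2.80. The share of all genes called lower was 10.2%. Pdgfrb was 21.2-fold lower in TNE, Timp1 72.4-fold, Col6a3 17-fold, Bgn 12.5-fold and Dcn (decorin) 7.04-fold. Lef1, a Wnt effector named after its values were seen, was the gene that rose (8.23 ± 0.48 in TNE, 7.02 ± 0.26 in TPIN), a call that held only with all arrays or without TNE replicate 3. Cdh2 (N-cadherin), the mesenchymal cadherin of the classical switch, was likewise singled out with its values known. It had 10.50, 10.64 and 10.38 on the TNE arrays and 9.71, 10.38 and 6.42 on the TPIN arrays and did not pass (limma adjusted p = 0.209).

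Of 19 measured epithelial genes that the factors can repress, 4 rose, none fell and 15 did not pass, where 10.3% of all genes were called higher and 10.2% lower, and the median log2 difference was 0.44. Cd24a, a surface glycoprotein, was 80.8-fold higher in TNE (10.72 ± 0.90 in TNE, 4.38 ± 0.11 in TPIN). The protease inhibitor gene Spint2, the microtubule-binding Map7 and F11r (junctional adhesion molecule A) were 2.54-fold, 2.20-fold and 1.91-fold higher, and Cdh3 (P-cadherin) had a log2 difference of -0.99 (limma adjusted p = 0.0512). Spint2 and F11r each lost the call without any 1 array other than TPIN replicate 3, and Map7 without TNE replicate 1, TNE replicate 2, TPIN replicate 1 or TPIN replicate 2. The count was 1 without any of those 4 arrays. Of 7 measured transcription factors of epithelium 1, Tfap2a, rose (4.73-fold, lost without TPIN replicate 1). Foxa1, Gata3, Klf4 and Klf5 had log2 differences of 2.12, -0.88, -0.90 and -0.44 without a call, and Foxa1 passed without TNE replicate 3. Cdh1, Epcam, Esrp1, Grhl2 and Ovol2 are not analysed here.

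**Figure D4:**
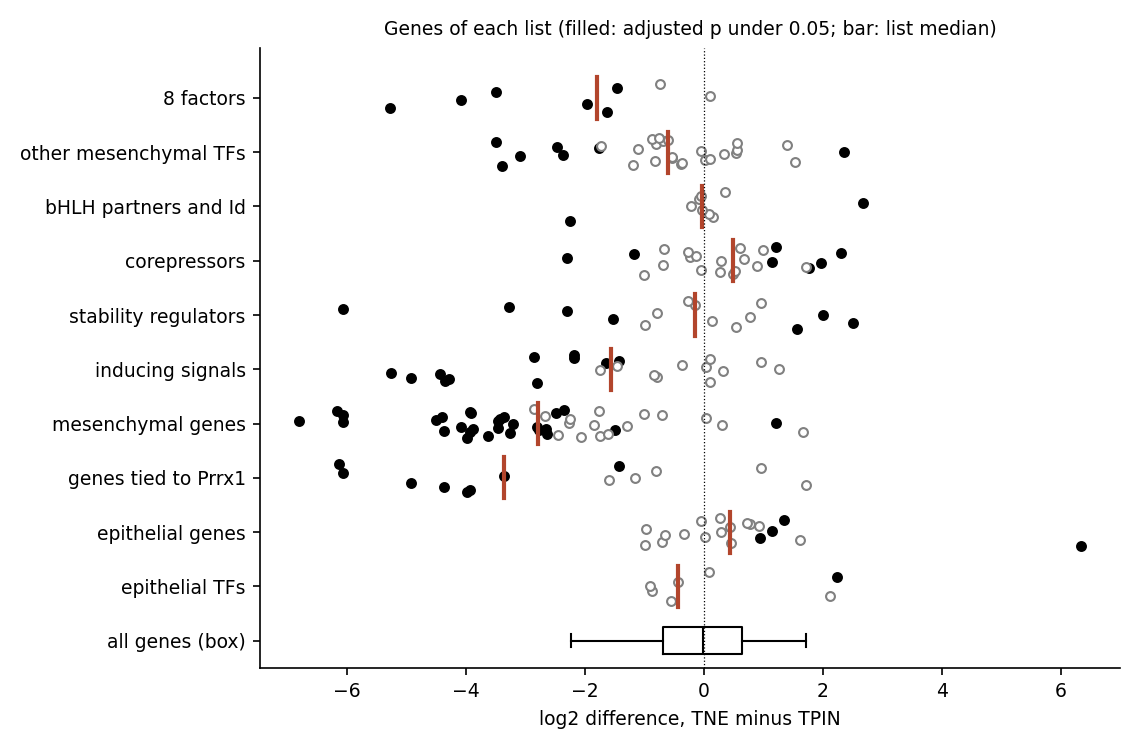
Log2 difference, TNE minus TPIN, of every measured gene in 10 lists; filled points passed the adjusted threshold of 0.05, red bars are list medians, and the box gives the median, quartiles and 5th to 95th percentiles of all genes. Among the lists plotted, mesenchymal genes and genes tied to Prrx1 have the lowest medians (-2.80 and -3.37), and of the epithelial genes Cd24a lies farthest from 0, with a list median of 0.44. The cell type markers are not plotted.

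Markers of fibroblasts and smooth muscle were lower on the same arrays as the factors. Of 16 measured fibroblast and smooth muscle markers 12 fell and all 16 had a negative difference, where 10.2% of all genes were called lower. Of these 16 genes 13 are also among the mesenchymal genes counted above, so the counts overlap and are not separate observations. The mean level of the list ranged from 7.53 to 8.42 on the TNE arrays and from 11.2 to 11.5 on the TPIN arrays, and Lum (lumican), Pdgfrb, Dcn, Postn and Tagln were lower in TNE by 112-fold, 21.2-fold, 7.04-fold, 66.9-fold and 15.1-fold. Col3a1 and Pdgfra, the markers of highest mean after Dcn, also fell, by log2 differences of -2.78 and -3.37, a call that Pdgfra lost without any 1 of the TPIN arrays. In bulk RNA a smaller share of cells of one type and less RNA per cell cannot be told apart, and the part of this marker shift in the fall of the factors was not tested.

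Of 5 endothelial markers 2 fell (Eng 11.9-fold, Flt1 2.93-fold) and 1 rose (Cdh5 3.08-fold), where 20.5% of all genes were called. Tek and Emcn had log2 differences of -0.67 and -0.21, and Flt1 lost its call without any 1 array other than TNE replicate 3. None of 4 leukocyte markers passed, with Cd68, Cd79a, Lyz2 and Cd14 at log2 differences of 0.63, 0.38, 0.85 and -0.14. Of 4 prostate luminal markers Acpp fell (48.4-fold), and Foxa1, Krt18 and Krt8 were at log2 differences of 2.12, -0.66 and -0.33 without a call. The list of 6 basal markers had no measured gene.

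Of 6 measured neuroendocrine markers 4 rose in TNE, where 10.3% of all genes were called higher. Uchl1, Syt1, Elavl4 and Snap25 were higher by 6.35-fold, 9.67-fold, 12.7-fold and 3.98-fold, and Eno2 and Ncam1 did not pass (log2 differences -0.79 and 0.04). The calls of Syt1 and Elavl4 ended when any 1 TPIN array was dropped, and that of Snap25 without TNE replicate 2, TNE replicate 3 or TPIN replicate 2. Chga, Syp and Insm1 are not analysed here.

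Splicing and progenitor genes linked to the transition are set beside the 20.5% of all genes that were called. Of 13 splicing regulators and their classical target exon genes, 2 rose (Nova1 11.2-fold, Srsf1 3.61-fold) and 1 fell (Mbnl2 3.68-fold). Of 12 progenitor genes 1 rose, Kit (6.02-fold, lost without TNE replicate 2, TPIN replicate 1 or TPIN replicate 2). Sox2, Itga6, Hmga2 and Cd44, the last a surface marker of mesenchymal-type stem cells, had log2 differences of 2.42, 2.42, -1.60 and -1.61 without a call. Hmga2 and Cd44 passed without TNE replicate 1, Sox2 without TNE replicate 3 and Itga6 without TPIN replicate 3.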

How the data were processed

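Total RNA of 6 samples was hybridised as biotin-labelled cDNA to single-colour arrays, per the labels' protocols. The values are log2 expression that the authors computed with RMA, as the submitters' processing notes state. This method subtracts background, gives the arrays a shared distribution and narrows differences near background. The sources used here give neither its version, nor a genome build, nor how the 10361 rows deposited were selected from the array. The array's annotation gave 9496 rows 1 symbol, and the row of highest mean was kept for 6 genes with several. The number of arrays limits the precision. Array medians ran from 8.82 (TNE replicate 3) to 9.1, and arrays correlated at 0.825 to 0.917 within TNE, 0.842 to 0.905 within TPIN and 0.549 to 0.733 between the groups.

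Groups came from the titles and cell type labels, although every sample's description field mentions intraepithelial neoplasia. Replicates were numbered in series order, which pairs nothing. Limma 3.58.1 in R 4.3.3 tested TNE minus TPIN over 9490 genes, two-sided, with Benjamini-Hochberg adjustment and a threshold of 0.05. Values are mean log2 ± SD, and folds are on the RMA scale. Relatives were, in 5 pairs, compared by exact permutation of array labels (scipy 1.17.1). The 8 members and 19 gene lists were chosen with earlier results of these data known, and the microRNAs, relatives and neighbours after values were seen. Named genes are the 8 factors, Tnc, up to 5 genes of smallest p per list, the 3 of highest mean in lists of other cell types, and the 6 of highest correlation with each factor; others are marked. The fit was also tested on simulated data (20 simulations of 9490 genes, 200 changed). It recovered 4.8% of genes at a log2 difference of 1, 53.6% at 2 and 81.5% at 3, with 3.56% false calls. In the data 1941 genes were called, so recovery there can differ. Alternatives left out each array, left out dim genes, kept all rows, normalized again by quantiles or medians, changed the moderation or weighted the arrays.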

Additional observations from a re-analysis of the deposited data

How the results depend on the processing

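Prrx1, Snai2 and Twist2 kept their direction and their call under all 12 alternatives, with Prrx1 between -5.36 and -5.19 without any 1 array. With any 1 array left out the log2 difference lay between -1.63 and -1.31 for Zeb1, -2.62 and -1.57 for Snai1, -1.86 and -1.42 for Foxc2, -1.11 and -0.37 for Zeb2 and -0.30 and 0.86 for Twist1, with changes of call and sign as given above. The number of factors called ranged from 3 to 6 and that of all genes from 832 (TNE replicate 2 dropped) to 2596 (TPIN replicate 3 dropped), with 936 and 1115 when TPIN replicate 1 or 2 was dropped. Fewer samples remain in these fits. The list counts ranged over 0 to 1 for homeobox relatives, 3 to 8 for corepressors, 7 to 12 for inducing signals, 1 to 5 for epithelial genes, 0 to 2 for epithelial transcription factors, 11 to 22 for cell cycle genes (11 without TNE replicate 2), 0 to 3 for progenitor genes, 1 to 2 for luminal and 1 to 4 for neuroendocrine markers. With array weights 4267 genes passed, Zeb2 among them at -1.09, and the counts were 3 for homeobox relatives, 12 for other mesenchymal factors, 13 for corepressors, 8 for epithelial genes, 3 for epithelial factors, 5 for progenitor genes and 2 for luminal markers; the cause was not tested. With dim genes left out Foxc2 had no value, and the counts were 1 for epithelial genes, 0 for progenitor genes and 2 for luminal markers, over fewer genes. Quantile normalization again and median centring each gave 1 homeobox relative, and the cause was not tested. No paired analysis was possible because the labels give no replicate number shared between the groups. Without detection calls, folds from low values are not ratios to a true zero.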
